A study of Homo sapiens with 12 samples.

Results

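The genes described here are *MYC*, its genomic neighbour *PVT1* and 8 genes tied to the MAX transcription factor network, measured in the human multiple myeloma line OPM2 after 2 h with a small molecule or vehicle. The 10 members were chosen by name by a rule that uses no measured value, but with earlier results of these data known. They are *MYC*, *PVT1*, *TFAP4*, *MAX*, *MXD1*, *MXD3*, *MXD4*, *MXI1*, *MNT* and *MGA*. They are 10 of 63152 gene identifiers in the count table, and 10 of 10 were among the 13180 identifiers that passed a filter on low counts. The series compared 4 groups of 3 libraries each, described by the submitters as biological triplicates, all from the same line. The 18DS group received 250 nM of 18DS, which the submitters describe as a chimeric inhibitor of both PI3K and BET proteins. The JQ1 group received 250 nM of JQ1, a BET bromodomain inhibitor, and the BKM120 group received 1 µM of BKM120 (buparlisib), a PI3K inhibitor. The DMSO group received vehicle. No library received JQ1 and BKM120 together, only 18DS and JQ1 were given at the same dose, and one line was used, so that the spread covers cultures of OPM2 and not other myelomas.

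Libraries were made by 3′ mRNA sequencing, which reads the ends of poly(A) transcripts, and held 5882214 to 7292895 counts in the 18DS group, 5501895 to 7692013 counts in the JQ1 group, 5563788 to 6883854 counts in the BKM120 group and 5940610 to 6594995 counts in the DMSO group. Levels are given as CPM, a count relative to the library's total, scaled by TMM, a factor per library that sets aside a minority of strongly changing genes. CPM is a share of the sequenced transcripts, so fewer cells of a kind and less RNA per cell cannot be told apart. The 11 of 11 plasma cell and OPM2 markers checked were expressed, from *CD38* at 3.51 to 7.05 CPM to *JCHAIN* at 2636 to 3186 CPM. Marker sums were taken relative to library totals, without the TMM factors (0.971 to 0.976 with 18DS and 1.01 to 1.03 with DMSO). The plasma cell and OPM2 sum was 5463 to 5909 CPM with 18DS, 5857 to 6168 with JQ1, 6362 to 6498 with BKM120 and 6481 to 6605 with DMSO. The part of this shift in the results below was not tested. Summed markers of other cells did not exceed 1.80 CPM for T and NK cells, 4.11 CPM for myeloid cells and 2.75 CPM for epithelial and stromal cells, and the markers *CD3D*, *NKG7* and *PECAM1* had 0 counts in all 12 libraries. One library, 18DS replicate 2, lay away from its replicates on principal components 2 and 3 (component 2 scores of -20.8 in replicate 2, 2.08 in replicate 1 and -5.30 in replicate 3), and the counts and calls that changed most without it are also given without it.

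MYC is a basic helix-loop-helix leucine zipper protein that binds DNA as a dimer with MAX, mostly at E-box sequences, and raises transcription of genes for growth, ribosome production and the cell cycle. MAX also pairs with the MXD proteins, MXI1, MNT and MGA, which occupy similar sites and recruit repressor complexes, so that MYC and these antagonists share one partner. In multiple myeloma *MYC* is often placed under strong enhancers, and its transcription is known to be sensitive to BET inhibitors. *MYC* messenger RNA and protein are both short-lived.

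With 18DS, 2 of the 10 members were called higher than with DMSO and 4 lower, at a Benjamini-Hochberg adjusted p under 0.05 in an edgeR quasi-likelihood fit over all tested genes. In that comparison 21% of all tested genes were called, 9.96% higher and 11% lower. Without 18DS replicate 2, 4 members were called, since *MAX* and *MGA* were lost. The share of all tested genes in that fit is not given. Leaving out each library in turn gave 1909 to 3026 genes called with 18DS, against 2769 with all libraries. With JQ1, 2 members were called lower and 0 higher (1 higher and 4 lower at an unadjusted p under 0.05, and again 2 lower and 0 higher with DESeq2 and with limma-voom), where 6.08% of tested genes were called, 2.63% higher and 3.45% lower. The share of all tested genes at an unadjusted p under 0.05 is not given here. By p with JQ1, *MNT*, among the 4 lower, ranked 1980 of 13180 genes, where 801 were called at the adjusted threshold. With BKM120, 2 members were called higher and 1 lower, where 8.21% of tested genes were called, 4.07% higher and 4.14% lower. The median log2 fold change of the 10 members was -0.23 with 18DS, -0.16 with JQ1 and 0.24 with BKM120, and that of all tested genes lay between -0.0033 and 0.0030. These 3 comparisons share the DMSO libraries.

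**Figure D1:**
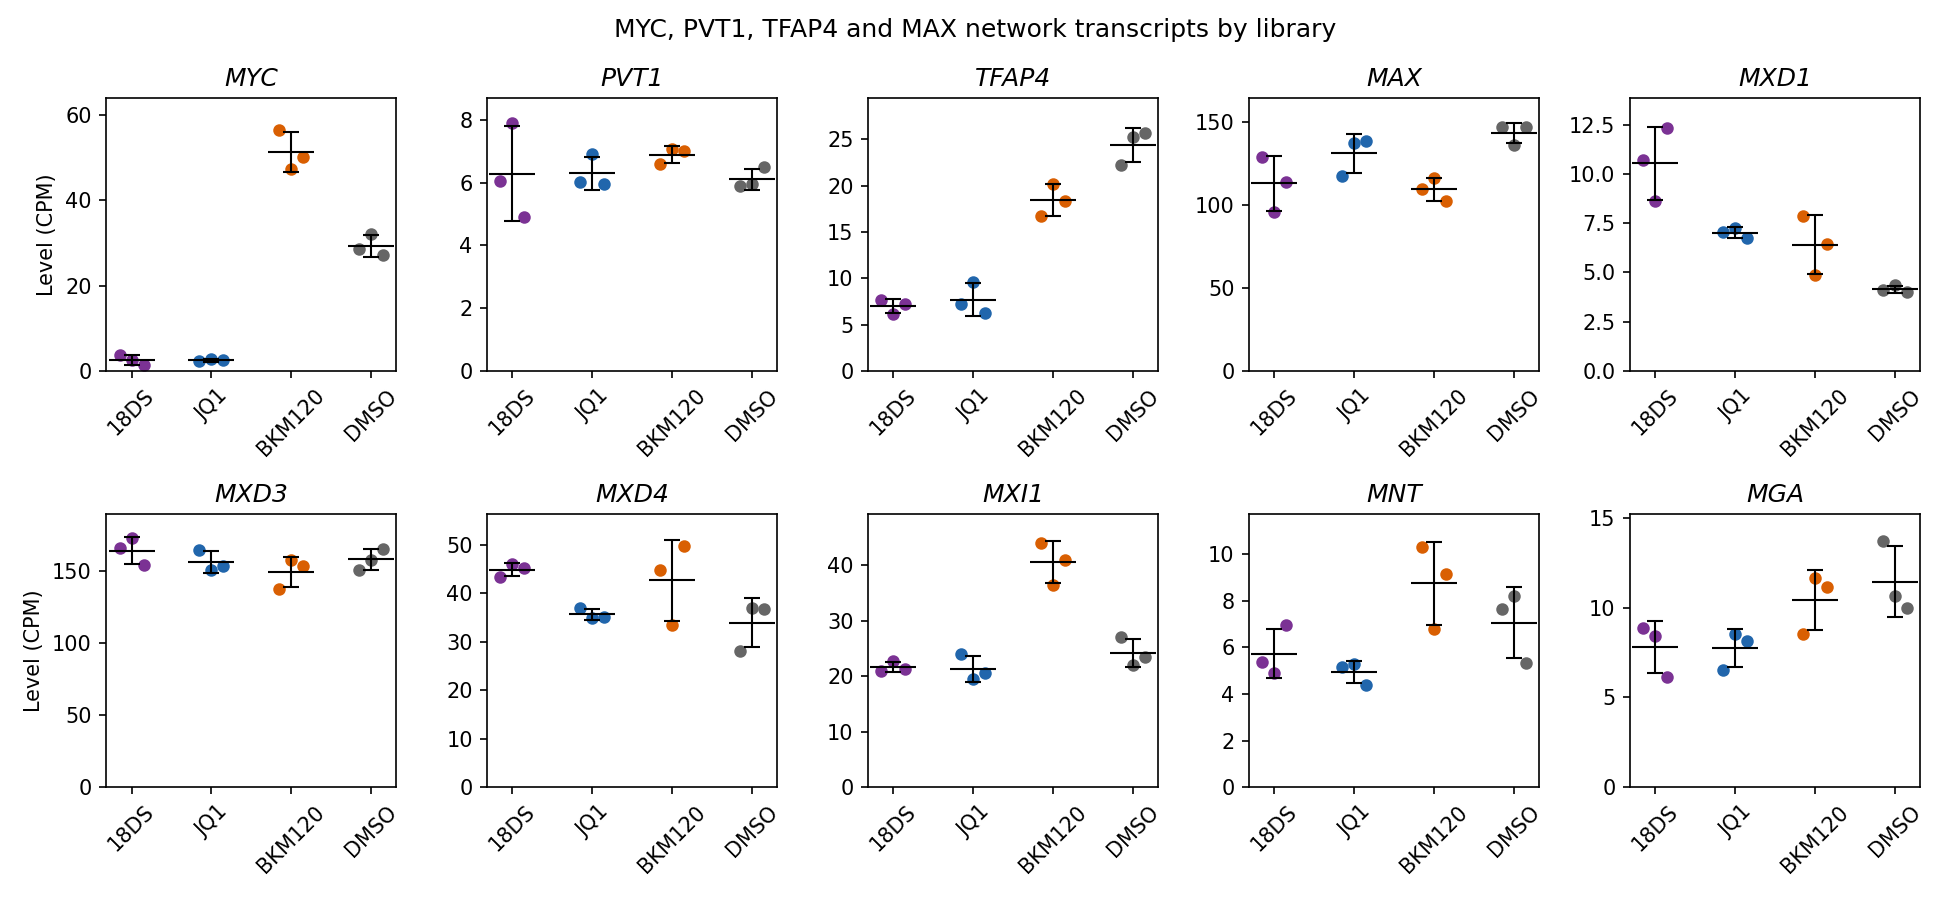
Level of each of the 10 member transcripts in every library (y axis, CPM scaled by TMM, from 0) by group (x axis), with each point 1 library, the wide bar the mean and the error bar the SD of 3 libraries. *MYC* lies between 1.42 and 3.66 CPM in the 18DS and JQ1 libraries, between 47.4 and 56.5 CPM in the BKM120 libraries and between 27.2 and 32.2 CPM in the DMSO libraries.

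*MYC* (ENSG00000136997) was lower with 18DS and with JQ1 and higher with BKM120. Its level was 3.66, 2.46 and 1.42 CPM in the 18DS libraries and 2.24, 2.91 and 2.46 CPM in the JQ1 libraries. It was 56.5, 47.4 and 50.1 CPM in the BKM120 libraries, against 28.6, 32.2 and 27.2 CPM in the DMSO libraries. The 18DS and JQ1 libraries overlapped each other, and neither group overlapped BKM120 or DMSO. With 18DS the log2 level of *MYC* fell by 3.51 (SE 0.20, adjusted p = 4.22e-16 by edgeR), so that it was 11.4-fold lower. With JQ1 it fell by 3.53 (SE 0.20, adjusted p = 6.79e-16 by edgeR). With BKM120 it rose by 0.81 (SE 0.13, edgeR adjusted p = 5.01e-05), a 1.75-fold higher level. Behind the low values stood 9 to 26 reads per 18DS library and 13 to 19 per JQ1 library, against 163 to 200 per DMSO library, and the replicate SD was 44.6% of the mean in 18DS and 8.90% in DMSO.

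*PVT1* (ENSG00000249859), a long non-coding RNA gene beside *MYC* on chromosome arm 8q, is often rearranged or gained together with *MYC* in myeloma. It was called in none of the comparisons in which *MYC* was. It had 6.06, 7.90 and 4.90 CPM with 18DS, 6.02, 6.91 and 5.96 CPM with JQ1, 6.60, 7.09 and 7.01 CPM with BKM120, and 5.89, 5.96 and 6.50 CPM with DMSO. The 18DS and JQ1 ranges overlapped the DMSO range, and the BKM120 libraries lay just above it. Against DMSO it had log2 fold changes of 0.032 for 18DS (95% confidence interval -0.42 to 0.48), 0.037 for JQ1 (-0.42 to 0.49) and 0.17 for BKM120 (-0.27 to 0.62). The intervals do not reach the size of the *MYC* falls. Without 18DS replicate 2 the 18DS value turned to -0.15 and was not called. *PVT1* had 31 to 48 reads per library, and changes within these intervals were not detectable at this depth.

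Of 26 listed genes around *MYC* on the same arm, 19 had an identifier and 8 were tested. With each compound 1 of the 8 was called (12.5%), where 21% of all tested genes were called with 18DS, 6.08% with JQ1 and 8.21% with BKM120. *TRIB1*, a pseudokinase gene that lies on the centromeric side of *MYC*, was the one called with 18DS (mean 14.2 CPM, against 31.9 CPM in DMSO, log2 fold change -1.17) and the one called with JQ1 (13.8 CPM, against 31.9 CPM, -1.21). With BKM120 the one called gene was *SQLE*, a sterol synthesis gene (11.9 CPM, against 17.8 CPM in DMSO, -0.57). The median log2 fold change of the 8 genes was -0.12 with 18DS, 0.065 with JQ1 and -0.16 with BKM120. Scaled by library totals alone, 2 genes were called lower with 18DS and 2 with BKM120. That scaling also moved the median log2 fold change of all tested genes, to -0.075 with 18DS and -0.035 with BKM120.

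*TFAP4* (ENSG00000090447), which encodes the helix-loop-helix factor AP-4 and is a known target gene of MYC in human cells, fell with 18DS and JQ1. Its level was 7.61, 6.15 and 7.26 CPM with 18DS and 7.22, 9.64 and 6.22 CPM with JQ1. It was 16.7, 20.2 and 18.3 CPM with BKM120, against 22.2, 25.3 and 25.7 CPM with DMSO. Each compound's libraries lay below those of DMSO, and the BKM120 libraries lay between DMSO and the other compounds. The fall was 1.79 on the log2 scale with 18DS (SE 0.17, edgeR adjusted p = 3.64e-10) and 1.68 with JQ1 (SE 0.17, adjusted p = 2.93e-09 by edgeR). The BKM120 difference of -0.40 (SE 0.15) was not called (adjusted p = 0.0818), while *MYC* rose in the same libraries.

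*MAX* (ENSG00000125952), the shared dimer partner, was lower with 18DS and BKM120 by a small amount. It had 129, 95.7 and 114 CPM with 18DS, 117, 137 and 138 CPM with JQ1 and 109, 116 and 102 CPM with BKM120, against 147, 136 and 147 CPM with DMSO. The 18DS and BKM120 libraries lay below the DMSO libraries, and the JQ1 libraries overlapped them. *MAX* fell by 0.34 in log2 terms with 18DS (SE 0.092, edgeR adjusted p = 0.00701) and by 0.39 with BKM120 (SE 0.092, adjusted p = 0.00658). The JQ1 difference of -0.13 (95% confidence interval -0.31 to 0.058) was not called. Each call was lost without 1 library. Without 18DS replicate 2 the 18DS value was -0.23 (adjusted p = 0.0676), and without BKM120 replicate 3 the BKM120 value was -0.34 (adjusted p = 0.0546).

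Among the antagonists, *MXD1* (ENSG00000059728), a MAX partner known to rise as cells differentiate, rose with 18DS. Its level was 10.7, 8.60 and 12.3 CPM with 18DS, 7.05, 7.28 and 6.73 CPM with JQ1 and 7.89, 4.87 and 6.47 CPM with BKM120, against 4.12, 4.35 and 3.999 CPM with DMSO. The libraries of every compound lay above those of DMSO, and those of 18DS lay above those of JQ1. *MXD1* rose by 1.34 in log2 terms with 18DS (SE 0.22, edgeR adjusted p = 3.12e-05), a 2.54-fold higher level. The differences of 0.75 with JQ1 (SE 0.24, adjusted p = 0.0525) and 0.62 with BKM120 (SE 0.24, adjusted p = 0.106) were not called in the fit over all libraries. The JQ1 difference passed the threshold without 18DS replicate 2 (adjusted p = 0.0388), without BKM120 replicate 2 (0.0446), with upper-quartile scaling (0.0407) and in a fit on the JQ1 and DMSO libraries alone (0.0316). The BKM120 difference passed without BKM120 replicate 2 (0.79, adjusted p = 0.0422). In GENCODE v29, *MXD1* shares exon bases with *SNRNP27* on the same strand, so reads there cannot be assigned to one of them with certainty.

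*MXD4* (ENSG00000123933), another MXD family repressor gene, was the other member called higher with 18DS. It had 43.4, 46.0 and 45.3 CPM with 18DS, 37.0, 34.9 and 35.2 CPM with JQ1 and 44.8, 33.5 and 49.8 CPM with BKM120, against 28.1, 36.9 and 36.8 CPM with DMSO. The 18DS libraries lay above all DMSO libraries, the JQ1 libraries overlapped DMSO, and BKM120 replicate 2 lay within the DMSO range while the other BKM120 libraries lay above it. The log2 rise with 18DS was 0.41 (SE 0.12, edgeR adjusted p = 0.0146) and was not called without DMSO replicate 1 (0.30, adjusted p = 0.119). The BKM120 difference was 0.33 (SE 0.12, adjusted p = 0.0906), and 0.48 without BKM120 replicate 2 (adjusted p = 0.00800), where it was called. The sequence around its annotated start in RefSeq (GRCh38.p14, minus strand, chr4:2262080-2262359, 250 bases before to 30 bases after the start, 5′ to 3′) is shown because *MXD4* and *MNT* were the members whose windows held an E-box. Capitals mark the E-box CACGTG, which reads the same on both strands and was found in 2438 of 35116 such windows (6.94%). A match is a letter pattern and not a bound site.

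MXD4: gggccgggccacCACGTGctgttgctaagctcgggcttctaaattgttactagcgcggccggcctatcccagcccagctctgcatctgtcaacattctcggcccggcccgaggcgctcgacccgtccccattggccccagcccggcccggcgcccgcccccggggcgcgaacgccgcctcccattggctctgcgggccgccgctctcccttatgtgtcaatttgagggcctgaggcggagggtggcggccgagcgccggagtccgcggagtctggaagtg

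*MXD3* (ENSG00000213347), an MXD gene linked to dividing cells, was not called in any comparison with DMSO, and the libraries of each compound overlapped those of DMSO. It had 154 to 173 CPM with 18DS, 151 to 165 CPM with JQ1 and 138 to 158 CPM with BKM120, against 151 to 166 CPM with DMSO. The largest of its 3 log2 fold changes was -0.081, with BKM120 (95% confidence interval -0.24 to 0.080). *MXD3* shares exon bases with *RAB24* on the same strand and *PRELID1* on the other, and the strand setting of the counting is not given in the sources used here. Exons of *PVT1*, *MAX*, *MXI1*, *MNT* and *MGA* share bases with genes of the count table on the opposite strand, and the same limit applies.

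*MXI1* (ENSG00000119950), an MXD family repressor gene known as a target of FOXO transcription factors, rose with BKM120. FOXO factors are held in the cytoplasm by AKT, the kinase downstream of PI3K, and enter the nucleus when that pathway is inhibited. *MXI1* had 20.9, 22.6 and 21.3 CPM with 18DS, 23.9, 19.5 and 20.6 CPM with JQ1 and 44.0, 36.5 and 41.0 CPM with BKM120, against 27.0, 22.1 and 23.5 CPM with DMSO. The BKM120 libraries lay above every other library, and the 18DS and JQ1 ranges overlapped DMSO. The log2 rise with BKM120 was 0.74 (SE 0.12, edgeR adjusted p = 7.29e-05), a 1.67-fold higher level. With 18DS the difference was -0.17 (95% confidence interval -0.42 to 0.092) and with JQ1 -0.18 (-0.44 to 0.074), and neither was called.

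RefSeq annotates 3 starts for *MXI1* on GRCh38.p14, all on the plus strand, and their windows of 250 bases before to 30 bases after each start are shown because *MXI1* was the antagonist called with BKM120. The windows are start 1 at chr10:110207355-110207634, start 2 at chr10:110209981-110210260 and start 3 at chr10:110225746-110226025, each 5′ to 3′. Capitals mark the FOXO core motif GTAAACA or its reverse complement TGTTTAC, searched on both strands. The motif begins at base 100 of the window of start 2 and at base 249 of the window of start 3. It was found in 1143 of 35116 windows (3.25%), a share per window where *MXI1* has 3. The 3′ reads do not tell which start was used. The windows of the other members that had any held no such motif. A match is not a bound site, and a part of FOXO factors in the *MXI1* rise was not tested.

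MXI1 start 1: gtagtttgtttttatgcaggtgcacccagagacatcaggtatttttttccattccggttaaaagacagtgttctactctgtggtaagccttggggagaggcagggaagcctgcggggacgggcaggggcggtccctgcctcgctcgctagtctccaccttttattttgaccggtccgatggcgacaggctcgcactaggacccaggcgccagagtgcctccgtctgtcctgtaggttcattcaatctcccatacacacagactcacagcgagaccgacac
MXI1 start 2: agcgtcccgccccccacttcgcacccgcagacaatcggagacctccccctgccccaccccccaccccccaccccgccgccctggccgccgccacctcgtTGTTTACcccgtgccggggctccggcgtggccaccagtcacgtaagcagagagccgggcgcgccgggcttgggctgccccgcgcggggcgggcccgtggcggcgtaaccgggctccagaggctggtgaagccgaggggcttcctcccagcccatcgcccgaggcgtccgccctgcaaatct
MXI1 start 3: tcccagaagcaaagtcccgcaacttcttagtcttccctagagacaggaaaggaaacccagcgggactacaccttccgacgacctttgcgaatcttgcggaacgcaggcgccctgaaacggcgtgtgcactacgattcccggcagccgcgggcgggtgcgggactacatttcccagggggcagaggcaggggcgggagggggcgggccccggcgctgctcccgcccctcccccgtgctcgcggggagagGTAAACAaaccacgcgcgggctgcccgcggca

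*MNT* (ENSG00000070444), a broadly expressed MAX partner that represses transcription, was not called against DMSO. It had 5.36, 4.92 and 6.95 CPM with 18DS, 5.16, 5.27 and 4.40 CPM with JQ1 and 10.3, 6.79 and 9.16 CPM with BKM120, against 7.66, 8.21 and 5.33 CPM with DMSO. The JQ1 libraries lay below the DMSO libraries and the other groups overlapped them. The JQ1 log2 difference was -0.53 (SE 0.24, edgeR adjusted p = 0.225). *MGA* (ENSG00000174197), a large MAX partner that also anchors a polycomb complex, had 8.88, 8.43 and 6.16 CPM with 18DS, 6.54, 8.55 and 8.16 CPM with JQ1 and 8.53, 11.7 and 11.1 CPM with BKM120, against 13.7, 10.6 and 9.997 CPM with DMSO. Its 18DS and JQ1 libraries lay below the DMSO libraries, and the BKM120 libraries overlapped them. *MGA* fell by 0.55 with 18DS (SE 0.20, edgeR adjusted p = 0.0434), close to the threshold. With JQ1 the difference was -0.56 (SE 0.20, adjusted p = 0.0880) and was not called. The 18DS call did not hold under DESeq2 (adjusted p = 0.0871), without 18DS replicate 2 (0.0549), without 18DS replicate 3 (0.210), without DMSO replicate 1 (0.269) or without DMSO replicate 2 (0.0590), and leaving out JQ1 replicate 1 or 3 also ended it (0.0512 and 0.0569).

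**Figure D2:**
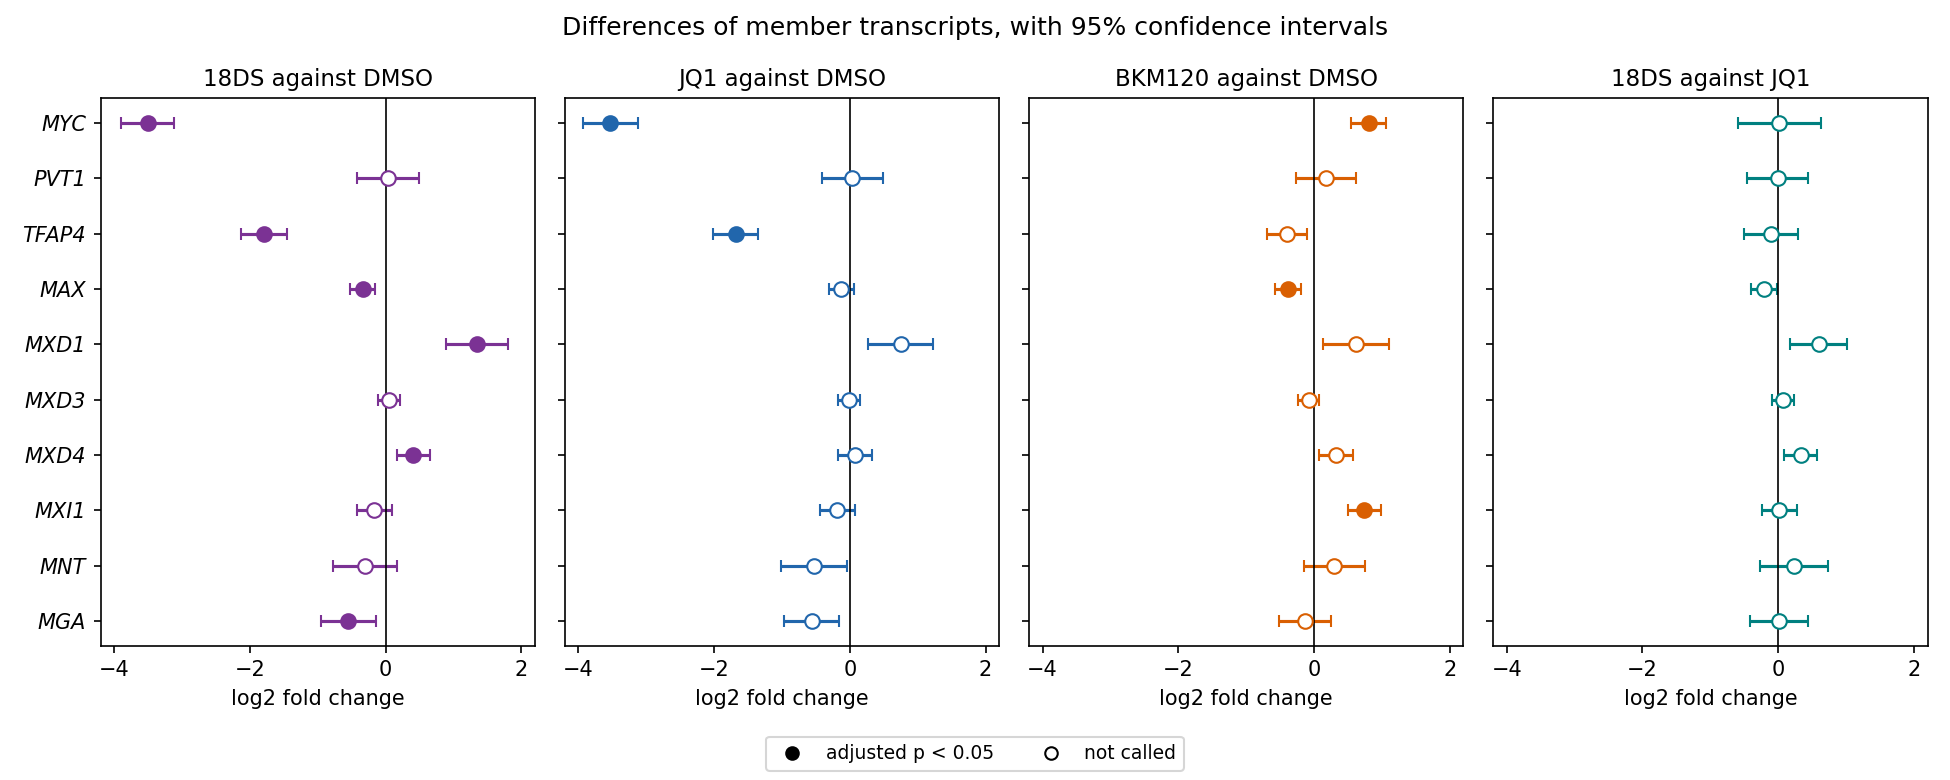
Log2 fold change (x axis) of the 10 members (y axis) in 4 comparisons, with bars for 95% confidence intervals from the edgeR fit and filled points for an adjusted p under 0.05. *MYC* is at -3.51 with 18DS and -3.53 with JQ1 against DMSO, and at 0.019 in 18DS against JQ1, where 0 of the 10 points are filled.

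18DS and JQ1 were given at the same dose of 250 nM and were set against each other. An equal dose need not give equal BET inhibition, which was not measured in these libraries. Unequal BET inhibition and the PI3K part of 18DS therefore cannot be told apart here. With edgeR 0 of the 10 members were called, where 4.16% of tested genes were called, 2.37% higher and 1.78% lower. At an unadjusted p under 0.05, 2 members were higher with 18DS and 1 lower, and DESeq2 and limma-voom called 0. The share of all tested genes at that unadjusted threshold is not given. By p, *MAX*, the one lower, ranked 1890 of 13180 genes, where 548 were called at the adjusted threshold. The difference of *MYC* was 0.019 on the log2 scale (95% confidence interval -0.59 to 0.63), with 9 to 26 reads of *MYC* per 18DS library behind it. The *TFAP4* difference was -0.10 (-0.50 to 0.29) and the *PVT1* difference -0.0053 (-0.46 to 0.45). The members with an unadjusted p under 0.05 were *MXD1* (0.59, SE 0.21, adjusted p = 0.0912), *MXD4* (0.33, SE 0.12, adjusted p = 0.113) and *MAX* (-0.21, SE 0.092, adjusted p = 0.194). The 18DS libraries lay above the JQ1 libraries for *MXD1* and *MXD4* and overlapped them for *MAX*. Without 18DS replicate 1 the *MAX* difference was -0.31 and was called (adjusted p = 0.0420). An adjusted p above the threshold does not show that the compounds act alike on these genes.

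The 18DS change was also set against the changes with JQ1 and with BKM120 added together as log2 values. The BKM120 dose was not that of 18DS, so the sum is an arithmetic baseline and not an expected effect. Here edgeR called 0 members, where 0.121% of tested genes were called, 0.0683% higher and 0.0531% lower. At an unadjusted p under 0.05, 2 members were lower than the sum and 0 higher, and DESeq2 and limma-voom called 0. The 0.121% does not apply to that threshold, at which the share of all tested genes is not given. By p, *MYC*, one of the 2, ranked 564 of 13180 genes, where 16 were called at the adjusted threshold. *MXI1* departed by -0.72 (SE 0.18, adjusted p = 0.0864) and *MYC* by -0.79 (SE 0.33, adjusted p = 0.533). Both rose with BKM120 and were not above DMSO with 18DS. *MXD1* departed by -0.021 (95% confidence interval -0.64 to 0.60) and *MXD4* by 0.0028 (-0.35 to 0.35). 18DS and BKM120 were not tested against each other because their doses differ.

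The counts of *MYC* were also divided by those of *MAX* within each library, which removes the library scaling. Per 100 *MAX* counts there were 2.84, 2.57 and 1.25 *MYC* counts with 18DS, 1.91, 2.12 and 1.78 with JQ1 and 51.6, 40.7 and 48.9 with BKM120, against 19.5, 23.7 and 18.5 with DMSO. The BKM120 libraries lay above the DMSO libraries and the 18DS and JQ1 libraries below them. A count ratio of different genes follows change between libraries and is not a ratio of molecules. The exact permutation test (two-sided, on log2 ratios) gave p = 0.1 for each compound against DMSO, the smallest that 3 against 3 libraries allow, and p = 0.9 for 18DS against JQ1.

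As a share of the summed counts of *MYC* and its antagonists (*MXD1*, *MXD3*, *MXD4*, *MXI1*, *MNT* and *MGA*), *MYC* made up 0.971% ± 0.423 with 18DS, 1.079% ± 0.183 with JQ1 and 16.6% ± 1.45 with BKM120, against 10.9% ± 0.930 with DMSO (SD, n = 3 each). The summed antagonist level was 255 ± 8.68 CPM with 18DS, 233 ± 9.87 CPM with JQ1 and 258 ± 11.04 CPM with BKM120, against 239 ± 6.87 CPM with DMSO (SD, n = 3 each). The antagonist sums of the 18DS and BKM120 libraries lay above those of the DMSO libraries, those of JQ1 overlapped them, and *MXD3* gave the largest part of each sum. The exact permutation p was 0.1 for the share of each compound against DMSO and 0.9 for 18DS against JQ1.

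**Figure D3:**
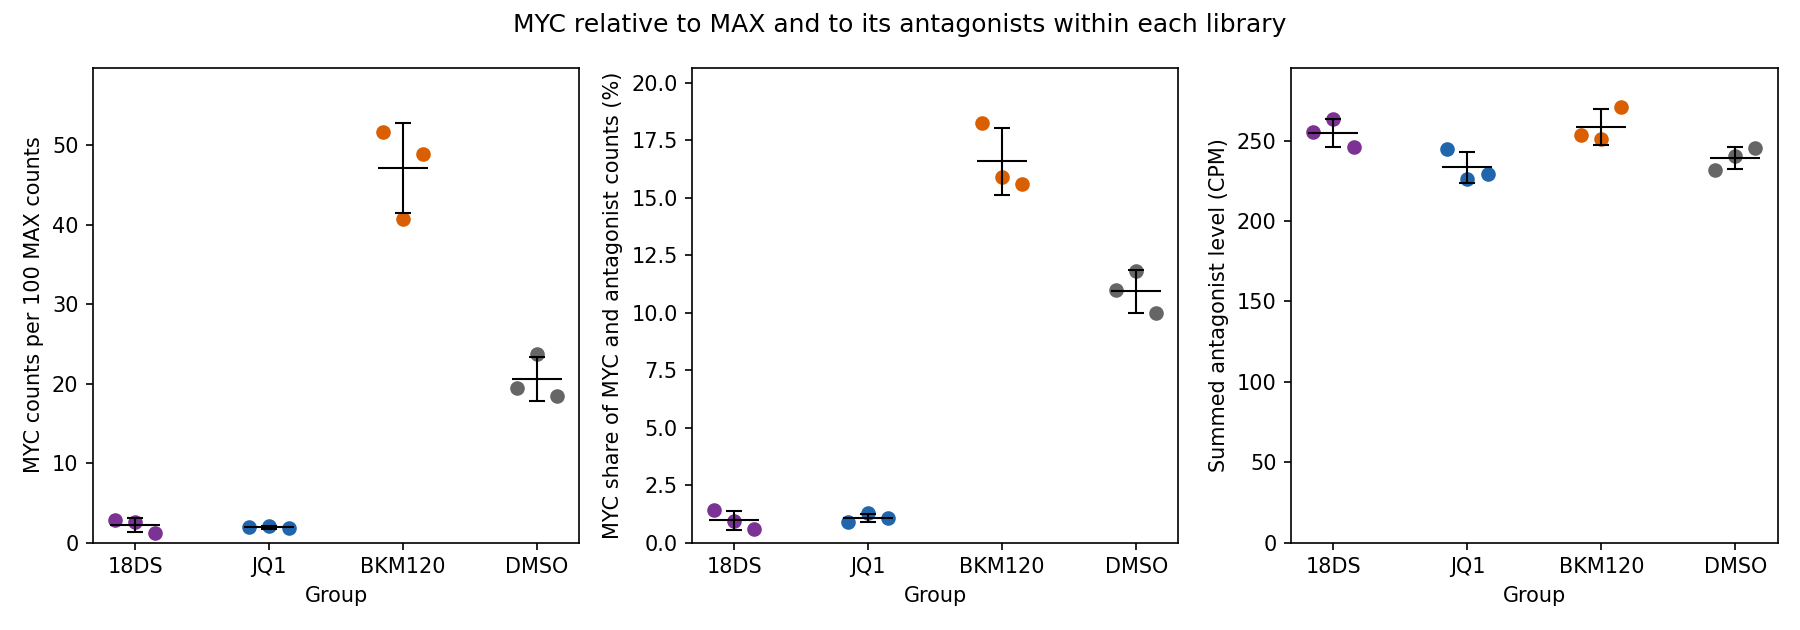
*MYC* counts per 100 *MAX* counts (left, y axis), *MYC* as a percentage of *MYC* and antagonist counts (middle, y axis) and the summed antagonist level in CPM (right, y axis), by group (x axis), with points for libraries, wide bars for means and error bars for the SD of 3 libraries. The summed antagonist level stays between 226 and 271 CPM in all 12 libraries, while *MYC* counts per 100 *MAX* counts span 1.25 to 51.6.

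Genes that textbooks list as activated by MYC changed in both directions. Of 33 tested, 12 fell and 4 rose with 18DS, 3 fell and 1 rose with JQ1, and 7 fell with BKM120. That is 48.5% of the list called with 18DS, where 21% of all tested genes were called, 12.1% with JQ1 (6.08% of all) and 21.2% with BKM120 (8.21% of all). Their median log2 fold change was -0.087 with 18DS, -0.044 with JQ1 and -0.15 with BKM120. *E2F2*, a cell cycle transcription factor gene, had 48.9 CPM with 18DS and 53.7 CPM with JQ1, against 86.7 CPM with DMSO (log2 fold changes -0.83 and -0.69). *NOP16*, a nucleolar protein gene, fell with 18DS (-0.56) and had 27.6 CPM with JQ1, against 43.1 CPM with DMSO (-0.64), and the helicase gene *DDX18* fell with 18DS (-0.44) and JQ1 (-0.32). *CCND2*, the cyclin D2 gene, fell with 18DS (-0.60) and BKM120 (-0.84). With BKM120, in the libraries where *MYC* rose, the transferrin receptor gene *TFRC* (-0.61), the hexokinase gene *HK2* (-0.55) and the polyamine synthesis gene *ODC1* (-0.30) fell. *TFRC* (-0.43) and *HK2* (-0.48) also fell with 18DS, where *MYC* fell. *IMPDH2*, a guanine nucleotide synthesis gene, rose with 18DS (0.43), and *PTMA*, the prothymosin alpha gene, rose with JQ1 (0.23), a call lost with library totals. With library totals alone 11 genes of the list were called lower with BKM120, and the median of all tested genes moved to -0.035. Without 18DS replicate 2, in a fit whose share over all tested genes is not given, the 18DS rises numbered 2 and the falls 12.

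Genes described as repressed by MYC included several cell cycle inhibitors. Of 13 tested, 6 rose and 1 fell with 18DS, 3 rose with JQ1, and 3 rose and 1 fell with BKM120. That is 53.8% called with 18DS, 23.1% with JQ1 and 30.8% with BKM120, against 21%, 6.08% and 8.21% of all tested genes with the same compounds. Without 18DS replicate 2, in a fit whose share over all tested genes is not given, 7 rose and 1 fell with 18DS. Their median log2 fold change was 0.22 with 18DS, 0.15 with JQ1 and 0.069 with BKM120. The cell cycle inhibitor gene *CDKN2D* had 34.4 CPM with 18DS and 31.6 CPM with JQ1, against 17.9 CPM with DMSO (0.95 and 0.82). *CDKN1A*, the p21 gene, had 16.6 CPM with 18DS, 15.9 CPM with JQ1 and 3.38 CPM with BKM120, against 8.95 CPM with DMSO (0.89, 0.81 and -1.42). It was the gene of these lists that edgeR called as departing from the sum of the separate changes (1.496, SE 0.28, edgeR adjusted p = 0.0145). The same gene was called with limma-voom, and DESeq2 called it and also *BTG1*, lower than the sum. *GADD45A*, a stress response gene, rose with 18DS (0.73), JQ1 (0.42) and BKM120 (0.41). DESeq2 did not call it with JQ1 or BKM120, while limma-voom did. *FTH1*, the ferritin heavy chain gene, rose with 18DS (0.40), and the antiproliferative genes *BTG1* (0.95) and *BTG2* (0.53) rose with BKM120. *BTG1* also rose with 18DS (0.38). *KLF6*, a zinc finger factor gene and the one that fell with 18DS (-0.50), was picked out after its value was seen.

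Cofactors of MYC and regulators of its stability were also counted. Of 35 tested, 6 fell and 1 rose with 18DS, 7 fell with JQ1, and 2 fell and 3 rose with BKM120. With 18DS the 20% called was near the 21% of all tested genes, while 20% were called with JQ1 (6.08% of all) and 14.3% with BKM120 (8.21% of all). *AURKA*, a mitotic kinase gene whose product protects MYC-family proteins from degradation, had 47.7 CPM with 18DS and 63.2 CPM with JQ1, against 99.3 CPM with DMSO (-1.05 and -0.65). *PIM2*, a kinase gene highly expressed in myeloma, had 2008 CPM with JQ1 and 4355 CPM with BKM120, against 2890 CPM with DMSO (-0.53 and 0.59). *PIM1* rose with BKM120 (0.98) and *PIM3* fell with 18DS (-0.52), JQ1 (-0.34) and BKM120 (-0.52). The deubiquitinase gene *USP36* fell with 18DS (-0.54), JQ1 (-0.46) and BKM120 (-0.39). The ubiquitin ligase gene *TRIM32* fell with 18DS (-1.34) and JQ1 (-0.84). Without 18DS replicate 2, in a fit whose share over all tested genes is not given, 4 fell and 3 rose with 18DS.

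The antagonists recruit corepressor complexes such as those built on SIN3 proteins. Of 15 corepressor genes, 2 rose and 2 fell with 18DS and 2 rose with BKM120. That is 26.7% called with 18DS and 13.3% with BKM120, where 21% and 8.21% of all tested genes were called with the same compounds. With JQ1 edgeR called 0, DESeq2 and limma-voom called 0, and 1 was higher and 1 lower at an unadjusted p under 0.05. The share of all tested genes at that unadjusted threshold is not given. *ARID4A*, a SIN3 complex gene, rose with 18DS (0.58) and BKM120 (0.75). *SUDS3* (-0.51) and *SIN3A* (-0.39), which encode SIN3 complex subunits, fell with 18DS. These 3 calls with 18DS, *ARID4A*, *SUDS3* and *SIN3A*, were lost without 18DS replicate 2. Of 15 genes of PRC1.6, the polycomb complex that MGA anchors, 1 rose and 2 fell with 18DS, 1 rose with JQ1, and 2 rose and 2 fell with BKM120. The shares called with 18DS (20%) and JQ1 (6.67%) were near those of all tested genes (21% with 18DS and 6.08% with JQ1), and that with BKM120 was 26.7% (8.21% of all). *E2F6*, which encodes a repressor of that complex, had 10.01 CPM with 18DS and 14.7 CPM with BKM120, against 21.7 CPM with DMSO (-1.11 and -0.56). *RNF2*, its ubiquitin ligase gene, had 9.25 CPM with 18DS and 9.95 CPM with BKM120, against 16.7 CPM with DMSO (-0.85 and -0.74). *RYBP*, another subunit gene, rose with 18DS (0.67), JQ1 (0.39) and BKM120 (0.38), and *YAF2* rose with BKM120 (0.39).

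**Figure D4:**
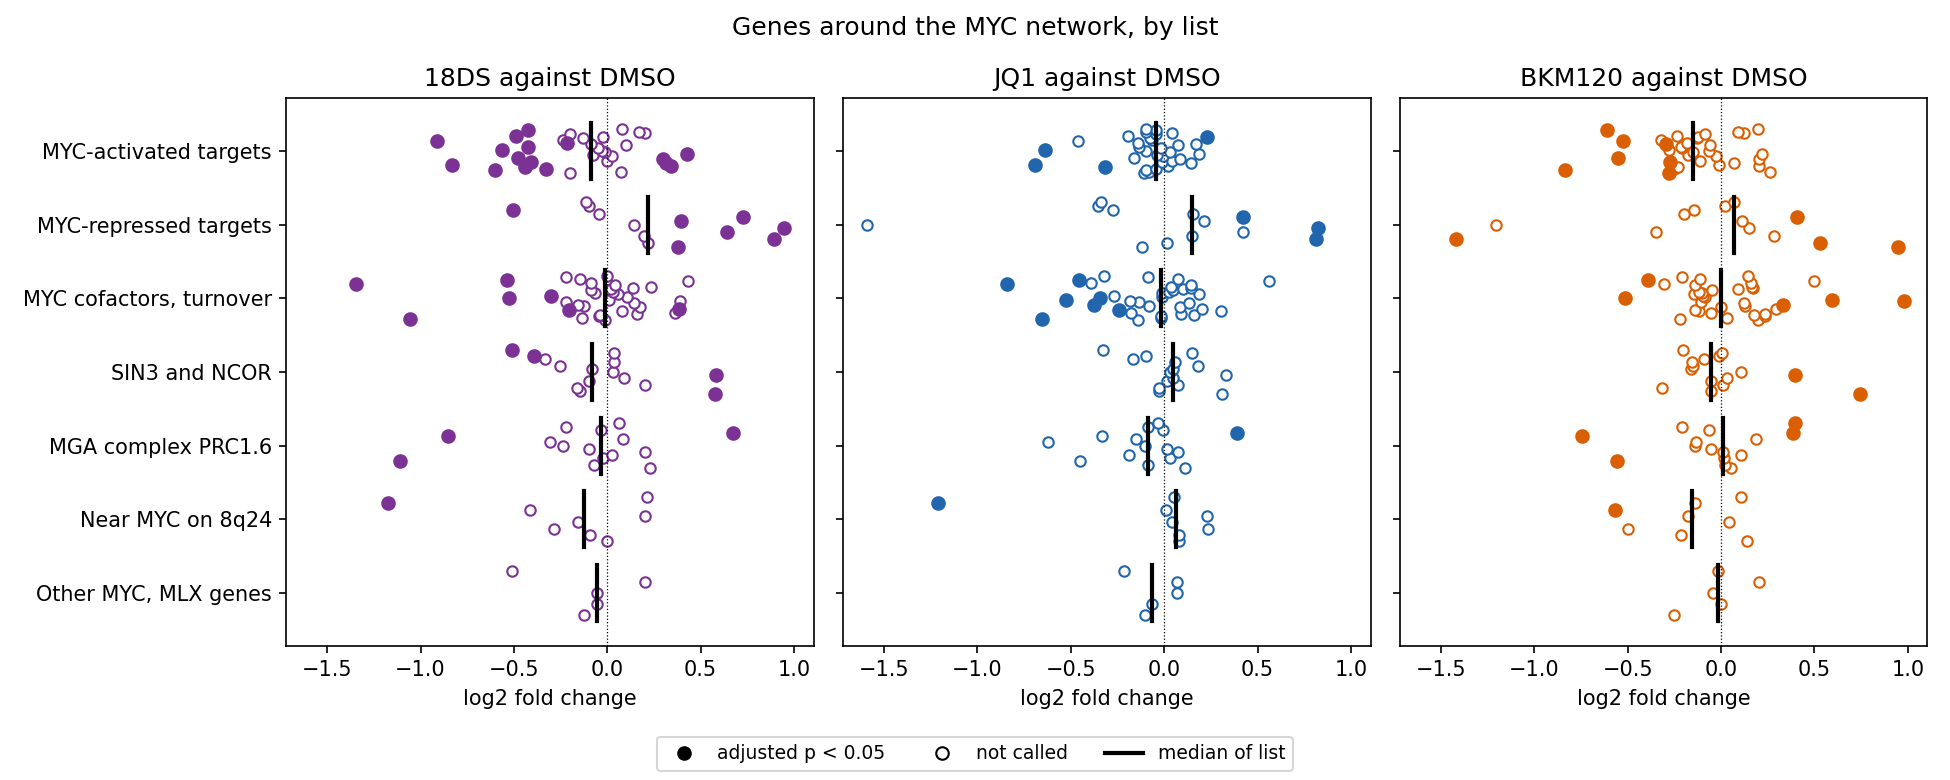
Log2 fold change (x axis) of every tested gene of 7 lists around the MYC network (y axis) against DMSO, with filled points for an adjusted p under 0.05 and black bars for list medians. The MYC-activated targets have medians of -0.087 with 18DS, -0.044 with JQ1 and -0.15 with BKM120, and the MYC-repressed targets 0.22 with 18DS, 0.15 with JQ1 and 0.069 with BKM120.

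In 18DS against JQ1, 6 of the 33 MYC-activated genes were lower and 1 higher, among them *CCND2* (193 CPM with 18DS, against 274 CPM with JQ1, log2 fold change -0.50), the translation factor gene *EIF4E* (-0.40), *TFRC* (-0.39) and *PTMA* (-0.25). In all 21.2% of the list was called, where 4.16% of all tested genes were called and 1.78% were called lower. Without 18DS replicate 2, 2 genes, *CCND2* and *TFRC*, were called lower and 0 higher there. *EIF4E* and *PTMA* were not called without that library, and over all tested genes 215 were called in place of 548. The shares called were 7.69% of the MYC-repressed, 8.57% of the cofactor and 6.67% of the PRC1.6 genes, nearer the 4.16% of all. Of the corepressor and 8q24 genes, 0 were called by edgeR, DESeq2 or limma-voom. At an unadjusted p under 0.05 by edgeR, 1 corepressor gene was higher, and 2 corepressor and 3 8q24 genes were lower. The share of all tested genes at that threshold is not given beside the unadjusted counts in this paragraph. In 18DS against JQ1, *MAX*, with an unadjusted edgeR p of 0.0278, ranked 1890 of 13180 genes, where 548 were called at the adjusted threshold. *BTG1* was higher with 18DS than with JQ1 (234 CPM, against 166 CPM, 0.49), as were *PIM2* (2914 CPM, against 2008 CPM, 0.54) and *GSK3A* (0.54), whose kinase product marks MYC for degradation. *AURKA* (-0.40) and *E2F6* (-0.66) were lower with 18DS than with JQ1, and *GSK3A* and *E2F6* were not called without 18DS replicate 2. Of the 7 other MYC and MLX family genes listed, 5 were tested. By edgeR, DESeq2 and limma-voom 0 were called in any comparison, and at an unadjusted p under 0.05 edgeR gave 1, *MLX*, lower with BKM120. *MYCN*, the neural MYC relative, had 2.63 ± 0.682 CPM with 18DS, 3.19 ± 0.943 CPM with JQ1 and 3.73 ± 0.749 CPM with BKM120, against 3.81 ± 0.760 CPM with DMSO (SD, n = 3 each).

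Across the 12 libraries, the tested genes whose log2 CPM was most alike to that of *MYC* among 9567 candidates were *GPANK1* (Pearson r = 0.991), *UTP25* (0.983), *GPR37* (0.973), *ZC3H4* (0.972) and *SERBP1* (0.970). The libraries fall into the 4 groups, and they share depth and treatment, so these values mix group patterns with scatter between replicates and carry no test. *UTP25*, a ribosome biogenesis gene, had 3.84 CPM with 18DS, 4.52 CPM with JQ1 and 14.6 CPM with BKM120, against 12.01 CPM with DMSO. The genes most alike to *TFAP4* were *SPOP* (0.971), *TECPR1* (0.971), *RBM39* (0.968), *MYB* (0.968) and *HNRNPDL* (0.967). *MYB*, a transcription factor gene of blood progenitors, had 13.6 CPM with 18DS, 15.7 CPM with JQ1 and 31.5 CPM with BKM120, against 39.7 CPM with DMSO, the same order of groups as *TFAP4*. The genes most alike to *PVT1* were *ARPIN-AP3S2* (0.886), *SUMO2P21* (0.884), *GMFB* (0.851), *BRAP* (0.838) and *TMEM165* (0.827). Each of these genes had its largest replicate SD with 18DS, as did *PVT1*, which was called in no comparison. *TMEM165* had 36.2 ± 8.48 CPM with 18DS, 36.5 ± 3.29 with JQ1, 35.5 ± 3.40 with BKM120 and 34.7 ± 0.232 with DMSO (mean and SD). Between members, r was 0.920 for *MYC* with *TFAP4*, 0.772 with *MGA*, 0.768 with *MXI1*, 0.744 with *MNT*, 0.284 with *PVT1* and 0.0469 with *MAX*. It was -0.667 for *MYC* with *MXD1*, -0.399 with *MXD3* and -0.123 with *MXD4*.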

How the data were processed

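The authors deposited raw counts per Ensembl gene, whole numbers with no normalization, 1 column per library. Per the labels' protocols, libraries were QuantSeq 3′ preparations read as 75-base single ends, and cultures were treated in triplicate. The submitters' processing notes name HISAT2 2.1.0, the build hg19, featureCounts from Subread, cutadapt 1.7, SAMtools 1.9, bcl2fastq 2.17.1.14, limma and FastQC 0.11.5. The sources used here do not give the annotation release, strand setting or treatment of multi-mapping reads.

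Symbols matched 51662 of 63152 identifiers. Counts were filtered with filterByExpr (minimum count 10, minimum total count 15), scaled by TMM (factors 0.971 to 1.03) and fitted in R 4.3.3 with edgeR 4.0.16 (robust quasi-likelihood, 12 libraries, 8 residual degrees of freedom, common biological coefficient of variation 0.0862). There were 5 contrasts, with p-values adjusted over all tested genes. The procedure was run on counts simulated from its own fitted spread, which cannot show that it suits these libraries. Alternatives were other scalings and filters, DESeq2 1.42.0, limma-voom (limma 3.58.1), fits without the robust option or on the contrast's own groups, a block for replicate number and leaving out each library. At this depth the median SE of a log2 fold change was 0.169 for JQ1 against DMSO. Between replicates, chi-square per degree of freedom was 1.90 to 8.53, above counting noise. No other identifier had counts within 5% of a member's in every library. Replicate numbers did not pair the libraries.

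The members and gene lists were chosen with earlier results of these data known. Named genes are the 10 members, up to 4 called genes per list and contrast with the smallest adjusted p, and the 5 genes most alike to *MYC*, *PVT1* and *TFAP4* (averaging 5 CPM or more). A gene that the rule selects is not reported here. Promoter windows come from RefSeq on GRCh38.p14 and exist here for 7 of the 10 members. No coordinates of the build the authors used were printed. Exon overlaps are from GENCODE v29.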

Additional observations from a re-analysis of the deposited data

How the results depend on the processing

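For members called in the report, 228 of 242 alternative fits gave the same direction and call, 14 lost the call and 0 reversed. Most lost calls were those of *MGA* with 18DS, which was also lost with upper-quartile scaling (adjusted p = 0.0664), without the expression filter (0.0589) and in the fit on its own groups (0.0618). The calls of *MYC* with each compound and of *TFAP4* with 18DS and JQ1 held in every alternative run. For members that were not called, 785 of 840 alternative fits left the result as it was, 7 gained a call and 48 changed sign, and the cause of these changes was not tested.

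Sign changes, as log2 fold changes near 0, came from library totals for *PVT1* (-0.040) and *MXD3* (-0.019) with 18DS, for *MYC* (-0.024), *MXI1* (-0.024) and *MGA* (-0.030) in 18DS against JQ1 and for the departure of *MXD4* (-0.0070). Upper-quartile scaling turned *MXD3* with JQ1 (0.015), *PVT1* in 18DS against JQ1 (0.014) and the *MXD4* departure (-0.024), and limma-voom turned *MYC* in 18DS against JQ1 (-0.072) and the *MXD1* departure (0.0055). *PVT1* in 18DS against JQ1 also turned with DESeq2 size factors (0.0011), without the filter (0.0075) and keeping genes averaging 1 CPM or more (0.0071), and the *MXD1* departure without the filter (0.0065).

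Leaving out each library in turn gave -0.15 to 0.18 for *PVT1* with 18DS, -0.028 to 0.082 for *PVT1*, -0.055 to 0.018 for *MXD3* and -0.044 to 0.14 for *MXD4* with JQ1, and -0.23 to 0.021 for *MGA* with BKM120. In 18DS against JQ1 it gave -0.38 to 0.31 for *MYC*, -0.18 to 0.15 for *PVT1*, -0.038 to 0.12 for *MXI1*, -0.086 to 0.16 for *MGA* and -0.25 to 0.078 for *TFAP4*, -0.11 to 0.48 for the log2 ratio of *MYC* to *MAX* counts and -0.33 to 0.091 percentage points for the *MYC* share. Departures ranged from -0.19 to 0.17 for *MXD1*, -0.14 to 0.13 for *MXD4* and -0.22 to 0.092 for *MNT*. The number of genes called ranged from 504 (without JQ1 replicate 2) to 1021 with JQ1, 482 (without BKM120 replicate 3) to 1564 with BKM120, 1909 to 3026 with 18DS, 105 (without JQ1 replicate 3) to 1027 (without 18DS replicate 1) in 18DS against JQ1 and 3 (without DMSO replicate 3) to 31 (without 18DS replicate 2) for the departure. Members called ranged from 4 to 6 with 18DS, 2 to 3 with JQ1, 2 to 5 (without BKM120 replicate 2) with BKM120 and 0 to 1 (without 18DS replicate 1) in 18DS against JQ1. The departure had 16 genes called in the main analysis, 45 without the expression filter and 10 without the robust option.

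List counts moved with scaling, and so did the median log2 fold change of all tested genes. With library totals it was -0.026 with JQ1, -0.035 with BKM120, -0.075 with 18DS and -0.055 in 18DS against JQ1. With upper-quartile factors it was 0.034, 0.045, 0.046 and 0.0059 in the same order, and -0.026 for the departure. The share of all tested genes called is not set beside the list counts here. Library totals gave 1 PRC1.6 gene lower and 0 MYC-activated genes higher with JQ1, and in 18DS against JQ1 1 cofactor gene higher, 2 PRC1.6 genes lower and 0 MYC-activated genes higher. Upper-quartile scaling gave 1 corepressor gene higher with JQ1, 5 cofactor genes and 1 MYC-activated gene higher with BKM120, and with 18DS 2 cofactor and 3 PRC1.6 genes higher and 1 corepressor gene lower. In 18DS against JQ1 it gave 2 MYC-activated and 2 MYC-repressed genes higher, and 1 MYC-repressed gene departed downward. The repeat of the lists without 18DS replicate 2 was chosen after seeing the data. It gave 1 corepressor gene higher and 0 lower with 18DS, 0 PRC1.6 genes lower in 18DS against JQ1 and 2 MYC-repressed genes departing upward.

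Same-numbered libraries did not deviate together (correlations of -0.128 to 0.0919 over 18 pairs, 6 of which were the best for their library). A fit with the replicate block called 743 genes with JQ1, 1042 with BKM120, 2667 with 18DS, 522 in 18DS against JQ1 and 16 for the departure, and *MGA* with 18DS had an adjusted p of 0.0504 in it. The fit on the groups of the contrast alone could not be run for the departure, which needs all 4 groups. Depth limits the low genes most, with 9 to 26 reads of *MYC* per 18DS library.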
